A study of Sus scrofa domesticus with 9 samples.

Results

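Lung mRNA levels were described for 6 listed genes of neutrophils: the calgranulin genes S100A8, S100A9 and S100A12, the receptor gene CSF3R, the granule protein gene LTF and the receptor gene FPR1. They were looked up by name among the 35670 genes of the authors' table of normalized counts. S100A8, S100A12, CSF3R and LTF had a row under their names, S100A9 had a row with an Ensembl identifier only, and FPR1 is not analysed here. S100A9 was therefore taken from ENSSSCG00000006588, which carries the description of this gene in the authors' gene sheet and overlaps the RefSeq S100A9 gene by at least 80%. All 5 genes with a row passed the filter of a mean normalized count over 20, as did 12446 genes in all, although LTF passed it with a mean of only 21.0.

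The study fed domestic pigs (Sus scrofa domesticus) a standard or an increased dose of cholecalciferol (vitamin D3) and asked how the dose altered lung transcripts. The 4 pigs of the standard dose (replicates 9, 17, 33 and 41) were given 2000 IU per kg of grower feed and 1500 IU per kg of finisher feed. For the 5 pigs of the increased dose (replicates 3, 19, 27, 51 and 59) these contents were 3000 and 2500 IU per kg, and both diets lasted 88 days. Cholecalciferol was thus present in the feed of both groups, and there was no group without it. The labels and the methods give the animals of the mRNA libraries as female, whereas the discussion of the study speaks of males. Each library came from 1 animal and from whole tissue of the upper lobe of the left lung, and its reads lie near the 3′ ends of transcripts (QuantSeq 3′ mRNA-Seq), so that counts of different genes can be compared without a correction for transcript length.

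Neutrophils are short-lived white blood cells that kill microbes with granule proteins and reactive oxygen. Large numbers of them pass through or stay in the capillaries of the lung, and they enter the alveoli and airways in inflammation. S100A8 and S100A9 are calcium-binding proteins that pair as calprotectin, which withholds zinc and manganese from microbes and fills much of the neutrophil cytosol. S100A12 (calgranulin C) is a related metal-binding protein that pigs and humans have and mice lack. CSF3R is the receptor for G-CSF, the growth factor of the neutrophil lineage, and LTF encodes lactoferrin, an iron-binding protein of the secondary granules that airway glands also secrete. FPR1 encodes a receptor for formylated bacterial peptides. Monocytes and some epithelia express calgranulin genes too, and in bulk tissue fewer cells of a type and less RNA per cell cannot be told apart.

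The 3 calgranulin genes lie within a short stretch of chromosome 4 of the pig genome Sscrofa11.1. S100A8 (ENSSSCG00000006590) spans 96209659 to 96210602 on the plus strand, S100A12 (ENSSSCG00000032857) spans 96225691 to 96227127 on the plus strand, and S100A9 spans 96236115 to 96239413 on the minus strand. CSF3R (ENSSSCG00000025795) lies on chromosome 6 from 92550161 to 92565477, minus strand, and LTF (ENSSSCG00000029879) on chromosome 13 from 29413886 to 29445739, minus strand. None of the 5 overlaps another gene in the authors' gene sheet. The last 300 bases of each RefSeq transcript had no match of at least 75 bases elsewhere in the genome. No 25-base word was shared between the ends of any pair of the 5 genes, so sharing of reads among them was not seen at this match length. The Ensembl gene of S100A12 reaches 97 bases past the RefSeq end, and these bases were not searched.

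The 250 bases before the annotated start of each calgranulin gene are shown as a description. They were read from the RefSeq copy of Sscrofa11.1 at chr4:96209409-96209658 for S100A8, chr4:96225441-96225690 for S100A12 and, on the minus strand, chr4:96239414-96239663 for S100A9. Capitals mark matches, on either strand, to the motifs of C/EBP, PU.1, AP-1 and the TATA box that are spelled out after the sequences, and no marked matches overlap.
S100A8: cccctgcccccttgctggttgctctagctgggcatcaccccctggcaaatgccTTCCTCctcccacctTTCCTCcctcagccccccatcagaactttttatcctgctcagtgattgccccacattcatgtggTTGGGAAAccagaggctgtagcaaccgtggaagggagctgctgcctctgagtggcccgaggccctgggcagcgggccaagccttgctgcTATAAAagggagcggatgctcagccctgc
S100A12: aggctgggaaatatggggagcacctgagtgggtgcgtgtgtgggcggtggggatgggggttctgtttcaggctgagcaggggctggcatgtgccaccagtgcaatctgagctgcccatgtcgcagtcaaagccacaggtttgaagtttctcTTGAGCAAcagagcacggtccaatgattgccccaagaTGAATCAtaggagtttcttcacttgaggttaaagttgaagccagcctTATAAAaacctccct
S100A9: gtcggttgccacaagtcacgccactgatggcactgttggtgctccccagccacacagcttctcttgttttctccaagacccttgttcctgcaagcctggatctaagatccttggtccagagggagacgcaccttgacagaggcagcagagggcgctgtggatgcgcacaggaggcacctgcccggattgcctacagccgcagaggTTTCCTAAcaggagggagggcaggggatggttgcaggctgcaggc

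The C/EBP motif was searched as TTNNGNAA. Each of the 3 windows held 1 match to it, and at least 1 match was present in 30.7% of the 12275 promoters of the same length from tested genes placed on chromosomes. The TATA box, searched as TATAAA, was found in the S100A8 window, 29 to 24 bases before the start, and in the S100A12 window, 15 to 10 bases before it, against 8.63% of all promoters. The S100A9 window held no such match. The core of the PU.1 motif, GAGGAA, was matched 2 times in the S100A8 window, both on the strand opposite to the gene, 0 times in the windows of S100A12 and S100A9, and in 23.4% of promoters. For AP-1 the letters TGANTCA were matched in the S100A12 window, not in those of S100A8 and S100A9, and in 4.41% of promoters. A vitamin D response element of the DR3 type, searched as a direct repeat of NGNTCA with 3 bases between the repeats, had no match in the 3 windows and was matched in 0.407% of promoters. These are matches of letters and not sites shown to be bound, and their part in the levels of the 3 genes was not tested.

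The libraries held 4253502 to 5411543 reads in genes at the standard dose and 4427608 to 5919294 at the increased dose. Standard dose replicates 9 and 41 stood apart, with a median Spearman correlation with the other libraries of 0.751 and 0.831, against 0.912 to 0.933 for the other 7. Of all genes tested, 21.3% had their lowest value in replicate 9 and 29.1% their highest. For replicate 41 these shares were 22.4% and 15.6%. As a check of the tissue, the surfactant gene SFTPC had a mean of 4382 ± 2413 normalized counts (SD, n = 4) at the standard and 5945 ± 1378 (SD, n = 5) at the increased dose. Replicate 9 was, however, the lowest library for 10 of 11 pneumocyte markers and the highest for 15 of 15 hepatocyte markers. Replicate 41 was the highest library for 8 of 8 skeletal muscle markers and the lowest for 12 of 14 monocyte and macrophage markers. The dose differences, ratios and correlations of the 5 genes are therefore given with and without both libraries.

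The order of the levels of the 5 genes was the same in 7 of 9 libraries. S100A12 had more normalized counts than S100A8 in 9 of 9 libraries, S100A8 more than S100A9 and CSF3R in 9 of 9, and LTF fewer than each of the others in 9 of 9. CSF3R exceeded S100A9 in 7 of 9 libraries, and these neighbours in the order had ranges that overlapped (23.5 to 153 and 30.8 to 95.8 normalized counts). The total over the 9 libraries was 12229 reads for S100A12, 3222 for S100A8, 826 for CSF3R, 588 for S100A9 and 197 for LTF.

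S100A12 was the most abundant of the 5. Normalized counts of 225, 967, 1485 and 968 were found at the standard dose (in the order of replicates 9, 17, 33 and 41). The increased dose (in the order of replicates 3, 19, 27, 51 and 59) had 1090, 1744, 1831, 1769 and 1328. Replicate 9 was far below all other libraries, 5 of 5 animals on the increased dose were above the median of the standard dose, and the groups overlapped through replicate 33. The means were 911 ± 518 (SD, n = 4) and 1552 ± 326 (SD, n = 5), a log2 fold change of 1.02 ± 0.44 (SE) on the log2(normalized count + 1) scale. The adjusted p was 0.401 (limma with Benjamini-Hochberg adjustment over 12446 genes), and the exact two-sided permutation test over all assignments of the animals to the doses gave p = 0.0397, unadjusted. Without replicate 9 the log2 fold change was 0.45 (exact permutation p = 0.125), and without replicates 9 and 41 it was 0.34 (exact permutation p = 0.286, where the smallest p possible is 0.0476).

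S100A8 followed S100A12 at a lower level. In the same order of libraries, normalized counts were 64.2, 296, 369 and 195 at the standard dose and 377, 383, 663, 369 and 261 at the increased dose. Replicate 9 was again the lowest library and replicate 27 the highest, and the groups overlapped through replicates 17 and 33. The value of replicate 9 rests on 43 reads, whose 95% Poisson interval (exact, counting error only) corresponds to 46.4 to 86.4 normalized counts. The means were 231 ± 132 (SD, n = 4) and 411 ± 150 (SD, n = 5), a log2 fold change of 1.02 ± 0.44 (SE). The limma adjusted p was 0.401 and the exact permutation p was 0.0794. The log2 fold change was 0.50 without replicate 9 (exact permutation p = 0.214) and 0.24 without replicates 9 and 41 (exact permutation p = 0.524).

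S100A9, the partner of S100A8 in calprotectin, had a different pattern. Its 4 standard dose libraries had, in that order, 59.7, 62.2, 57.4 and 80.6 normalized counts, and its 5 increased dose libraries 80.5, 49.5, 60.9, 95.8 and 30.8. Replicate 9 was not low for S100A9, and the values of the standard dose lay inside the range of the increased dose. The means were 65.0 ± 10.6 (SD, n = 4) and 63.5 ± 25.5 (SD, n = 5), and the log2 fold change was −0.12 ± 0.35 (SE; limma adjusted p = 0.896, exact permutation p = 0.746). It was −0.02 without replicates 9 and 41. Its sign turned to 0.11 without increased dose replicate 59.

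**Figure D1:**
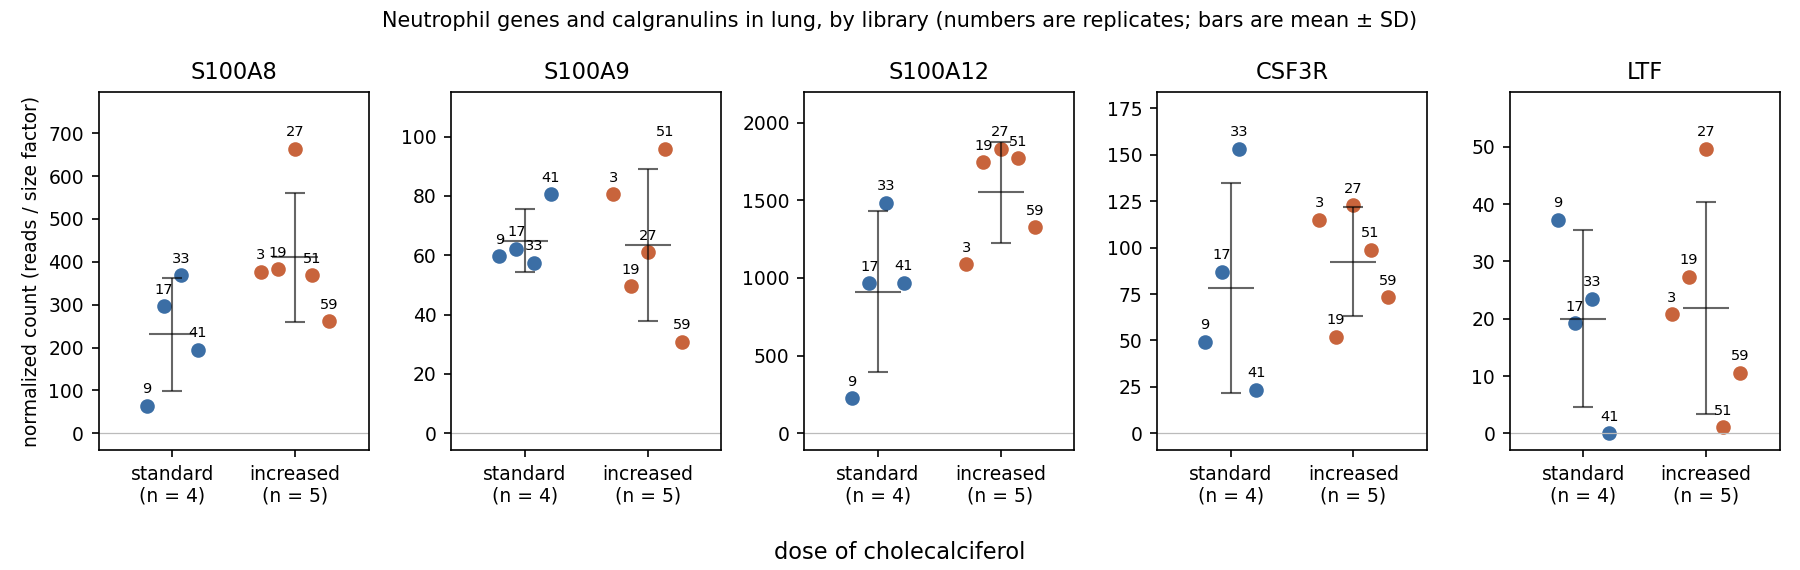
Normalized counts (reads divided by the size factor of the library, linear axes) of the 5 genes in the 4 standard dose and 5 increased dose libraries, each point a library with its replicate number and bars giving mean ± SD. Replicate 9 is the lowest library for S100A8 (64.2) and S100A12 (225) and not for S100A9 (59.7), and the groups overlap for each of the 5 genes.

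CSF3R had a wider range at the standard than at the increased dose. Replicates 9, 17, 33 and 41 had 49.2, 86.8, 153 and 23.5 normalized counts, respectively. Replicates 3, 19, 27, 51 and 59 of the increased dose had 115, 52.0, 123, 98.9 and 73.2. The lowest and the highest library were both of the standard dose, so the increased dose lay inside its range. The means were 78.2 ± 56.3 (SD, n = 4) and 92.4 ± 29.4 (SD, n = 5), and the log2 fold change was 0.48 ± 0.47 (SE; limma adjusted p = 0.659, exact permutation p = 0.437). Its size rested on replicate 41, since the log2 fold change was 0.02 without it and −0.38 without replicates 9 and 41.

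LTF had the fewest reads of the 5 genes, from 0 to 57 per library. Standard dose replicates 9, 17 and 33 had 37.3, 19.2 and 23.5 normalized counts, and replicate 41 had no read, which allows up to 3 reads or 3.36 normalized counts (a one-sided limit for counting error). Of the increased dose, replicates 3, 19, 27 and 59 had 20.8, 27.3, 49.6 and 10.6, and replicate 51 had a single read (1.03 normalized counts). Each group thus held a library at or near 0, and the groups overlapped. Counting error was smaller than the spread between animals of the increased dose, since the 95% Poisson intervals of replicate 27 (37.6 to 64.3 normalized counts) and replicate 51 (0.0261 to 5.74) did not overlap. The means were 19.996 ± 15.4 (SD, n = 4) and 21.9 ± 18.5 (SD, n = 5), and the log2 fold change was 0.35 ± 1.17 (SE; limma adjusted p = 0.911, exact permutation p = 0.722). It was −0.84 without replicate 41 and −0.58 without replicates 9 and 41. Without replicate 9 the mean of LTF was under the filter, so limma was not fitted, and the difference of the mean log2 values was 0.91 (exact permutation p = 0.571).

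None of the 5 genes passed an adjusted p of 0.05, and neither did any of the 12446 genes tested with limma (0%). S100A8 and S100A12, 2 of the 5, were higher at the increased dose with an unadjusted limma p under 0.05, against 5.57% of all genes in this direction and 12.2% in either direction. Both values rest on replicate 9, as given above. Groups without overlap were found for 0 of the 5 genes and 3.81% of all genes. The quasi-likelihood test of edgeR on the recovered reads called 0 genes at an adjusted p of 0.05 and 1871 by unadjusted p. DESeq2, the method of the study, called 195 of 12091 genes (1.61%) on the same reads, 168 lower and 27 higher, and 0 of the 5 genes, with adjusted p of 0.406 for S100A8 and 0.427 for S100A12. Without replicates 9 and 41, DESeq2 called 11 genes.

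**Figure D2:**
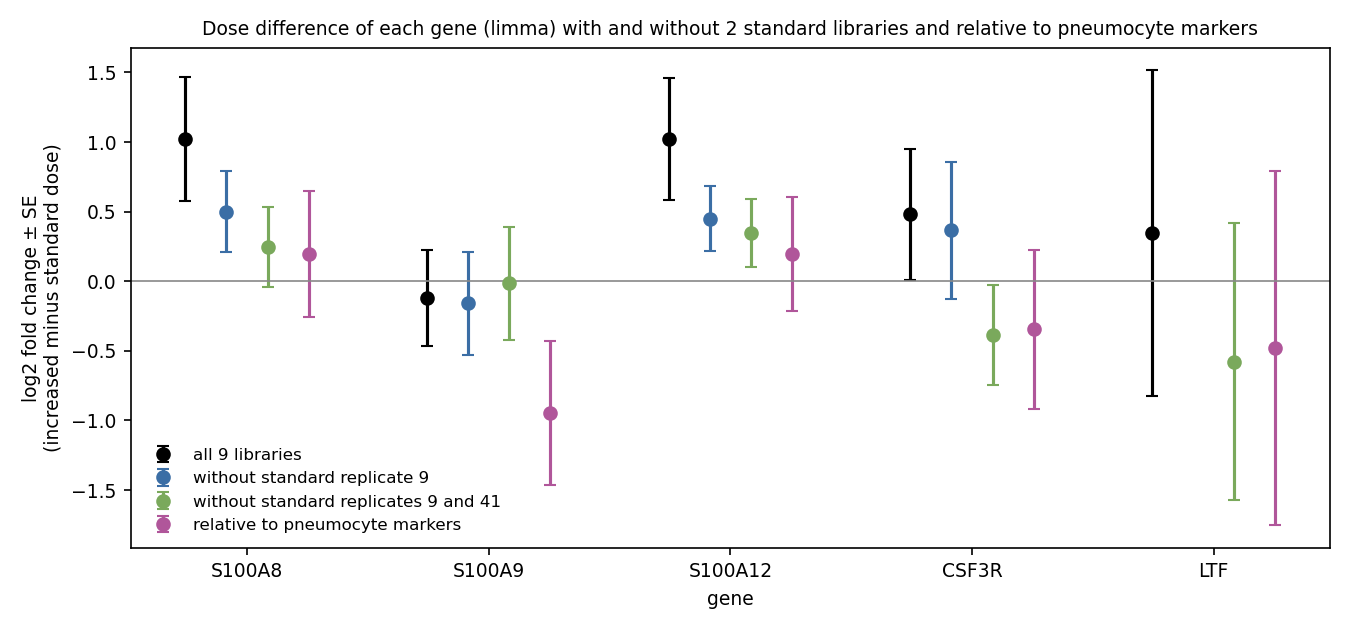
Log2 fold change of each gene (increased minus standard dose, limma; bars are SE) over all 9 libraries, without standard dose replicate 9, without replicates 9 and 41, and relative to the pneumocyte markers of the same library. S100A8 and S100A12 go from 1.02 to 0.24 and 0.34 when replicates 9 and 41 are left out, and CSF3R and LTF change sign. LTF has no limma value without replicate 9, because its mean is then under the filter, and the scaling to pneumocyte markers lowers every gene by the same 0.83.

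Because S100A8 and S100A9 are partners of the same complex, the ratio of their counts within each library was compared, which does not depend on the size factor. The ratio of S100A8 to S100A9 was 1.08, 4.76, 6.42 and 2.42 at the standard dose and 4.69, 7.74, 10.9, 3.85 and 8.47 at the increased dose, in the order of libraries used above. It was lowest in replicate 9 and highest in replicate 27, and the groups overlapped. The mean log2 ratio was 1.58 ± 1.15 (SD, n = 4) and 2.73 ± 0.62 (SD, n = 5), a difference of 1.15 with an exact permutation p of 0.0952 (0.143 adjusted over 3 ratios). Without replicates 9 and 41 the ratio lay between 3.85 and 10.9, and the difference was 0.26 (exact permutation p = 0.619). S100A9 had only 32 to 93 reads per library.

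The ratio of S100A12 to S100A8 varied less. It lay between 2.76 and 5.09 in the 9 libraries with a median of 4.03, and its mean log2 value was 1.96 ± 0.27 (SD, n = 4) at the standard and 1.96 ± 0.42 (SD, n = 5) at the increased dose (exact permutation p = 0.992, adjusted 0.992). Without replicates 9 and 41 the range was the same, and the mean log2 values differed by 0.10 (exact permutation p = 0.667). Replicate 9, where both genes were lowest, had a ratio of 3.51, inside the range of the other libraries. The ratio of S100A12 to S100A9 lay between 3.78 and 43.1, and its mean log2 value differed by 1.15 between the doses (exact permutation p = 0.0794, adjusted 0.143). Without replicates 9 and 41 it lay between 13.5 and 43.1, and the difference was 0.36 (exact permutation p = 0.476).

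Correlations over the 9 libraries were computed for the 10 pairs of genes on the log2(normalized count + 1) scale. S100A8 and S100A12 had Pearson r = 0.93 (exact permutation p = 0.00191, adjusted over 10 pairs 0.0191) and Spearman rho = 0.80 (exact permutation p = 0.0138, adjusted 0.138). Without replicates 9 and 41, which are farthest from the median of S100A8, r was 0.59 (n = 7, exact permutation p = 0.158), so the relation past the threshold rests on those libraries. S100A8 and S100A9 had r = 0.06 (exact permutation p = 0.867) and rho = 0.02, and r = 0.36 without replicates 9 and 41 (n = 7, exact permutation p = 0.391). For S100A8 and CSF3R, r was 0.59 (exact permutation p = 0.104, adjusted 0.505) and rho 0.62, and without these libraries r was 0.39 (n = 7, exact permutation p = 0.395). The other 7 pairs had r between −0.44 and 0.50, or between −0.34 and 0.44 without both libraries, and none passed after adjustment. The 9 libraries share the difference in depth and in tissue markers given above.

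**Figure D3:**
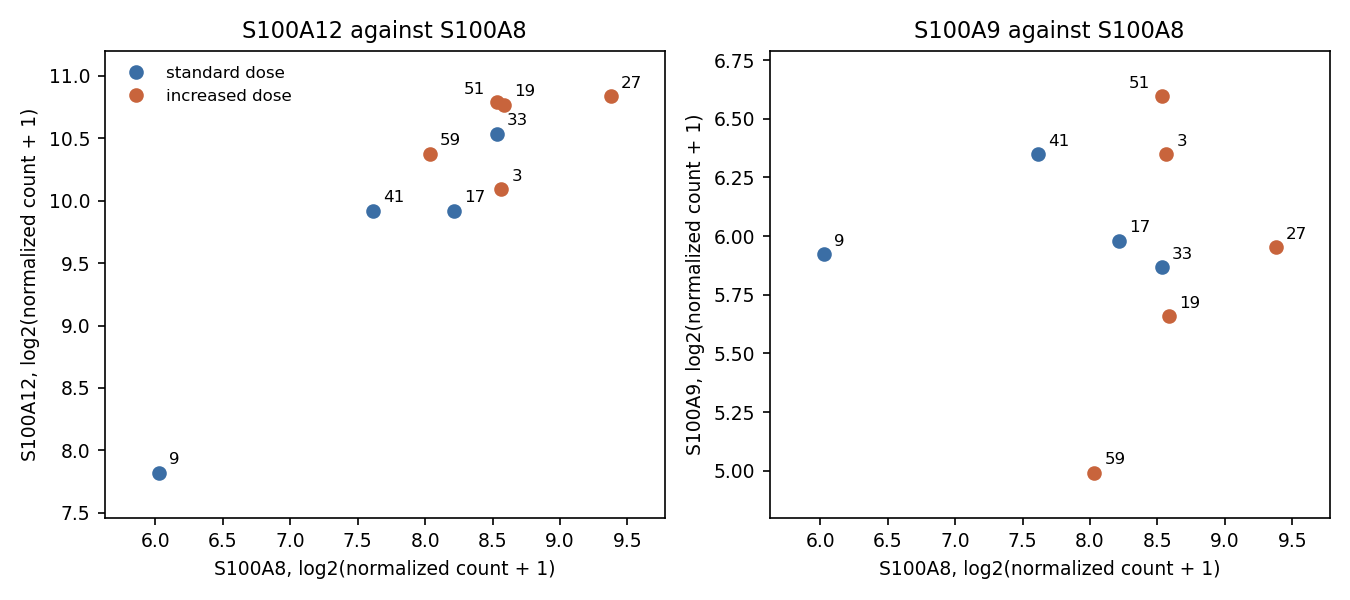
S100A12 (left) and S100A9 (right) against S100A8 on the log2(normalized count + 1) scale, each point a library labelled with its replicate number and coloured by dose. On the left replicate 9 stands alone at the lower left and r is 0.93, and on the right r is 0.06; without replicates 9 and 41 these are 0.59 and 0.36.

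Markers of the tissue moved with the same libraries. The mean log2 level of 11 pneumocyte markers was 7.74 to 9.46 at the standard dose and 9.51 to 10.4 at the increased dose, a difference of 0.83 (exact permutation p = 0.00794, the smallest these groups allow), and replicate 9 was lowest. The difference was 0.36 without replicates 9 and 41 (exact permutation p = 0.19). Their leading genes were SFTPA1 and SFTPC, which encode surfactant proteins, and CLIC5, a chloride channel protein of flat alveolar cells. Relative to these markers in the same library, the log2 fold change of S100A8 was 0.19 and that of S100A12 was 0.20, while S100A9 had −0.95 (exact permutation p = 0.0635), CSF3R −0.35 and LTF −0.48. This scaling lowers the log2 fold change of every gene by 0.83 and moves the median of all genes from 0.01 to −0.82, so the changed signs of CSF3R and LTF follow from the scaling. With and without it S100A8 and S100A12 lay 1.01 above the median of all genes, CSF3R 0.47 and LTF 0.34 above it, and S100A9 was at −0.13 relative to it. Without replicates 9 and 41 the values relative to pneumocyte markers were −0.12 for S100A8 and −0.016 for S100A12 (exact permutation p = 0.857 and 0.952). Hepatocyte markers (15 genes, led by ALB, HPX and FGB, which encode plasma proteins) had a summed level of 55654 to 411394 normalized counts at the standard dose and 31195 to 65848 at the increased dose. Those of skeletal muscle (8 genes, led by ACTA1, CKM and MYH4) had 38544 to 267777 and 64723 to 153067. The part of these markers in the values of S100A8 and S100A12 was not tested.

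**Figure D4:**
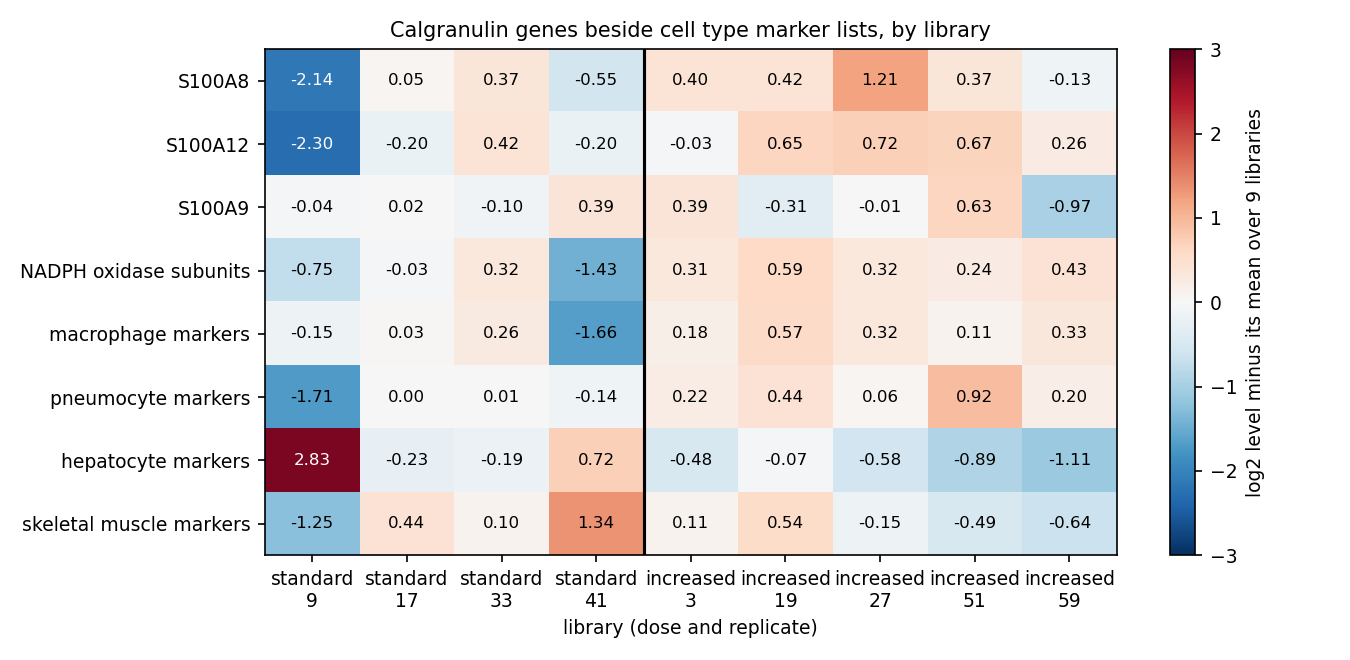
Log2 level of S100A8, S100A12 and S100A9 and mean log2 level of 5 marker lists in each library, minus the mean over the 9 libraries (blue lower, red higher); the line separates standard dose (left) from increased dose. In standard dose replicate 9, S100A8 is at −2.14, S100A12 at −2.30, pneumocyte markers at −1.71 and hepatocyte markers at 2.83, while S100A9 is at −0.04.

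Other S100 genes, in the cluster around the calgranulins and elsewhere in the genome, were measured as well. Of 16 other S100 genes looked up, 12 had a row, 8 passed the filter and 0 passed the test, 6 with a positive and 2 with a negative log2 fold change (median 0.46, against 0.01 for all genes, and 0.024 without replicates 9 and 41). S100A6 (calcyclin), with the highest counts of the list, had means of 1496 ± 835 and 2364 ± 1004 (log2 fold change 0.82 ± 0.46 SE, limma adjusted p = 0.446). S100A10, the partner of annexin A2, had 0.61, and S100A11 had 0.51. S100A4 had 0.04, and S100A14, an epithelial member, had 0.74. S100A1, a member known from heart and skeletal muscle, had means of 418 ± 554 and 117 ± 32.0 with 1249 normalized counts in replicate 9. S100A3 and S100A5 had no read in any library. Replicate 9 was the lowest library for 3 of the 8 genes tested (S100A6, S100A10 and S100A14), as it was for S100A8 and S100A12. Replicate 41 was also the lowest for 3 of the 8. Of all genes tested, 21.3% were lowest in replicate 9 and 22.4% in replicate 41.

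Receptors and adaptors of calgranulins were expressed in all groups. Of 8 genes, 8 were tested, 6 had a positive and 2 a negative log2 fold change (median 0.45, and 0.058 without replicates 9 and 41), and 0 passed the test. BSG, which encodes the surface protein basigin, had means of 804 ± 541 and 436 ± 68.6 (log2 fold change −0.70 ± 0.33 SE, limma adjusted p = 0.414). AGER, the receptor RAGE, which in lung is mainly a product of type 1 pneumocytes, had 355 ± 157 and 630 ± 226 (0.89 ± 0.35 SE, limma adjusted p = 0.401). CD14, a lipopolysaccharide co-receptor, had 618 ± 689 and 244 ± 32.7 (−0.81 ± 0.47 SE, limma adjusted p = 0.461). BSG and CD14 were both highest in replicate 9, with 1607 and 1650 normalized counts. The other standard dose libraries had at most 627 and 304. TLR4, the signalling receptor for calprotectin, had 142 ± 68.9 and 265 ± 42.3 (1.02 ± 0.33 SE, limma adjusted p = 0.397).

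Granule protein genes, which neutrophils transcribe mostly while they mature in bone marrow, covered a wide range of levels. Of 24 genes looked up, 19 had a row and 4 passed the filter, with 0 past the test and a median log2 fold change of 0.13 (−0.14 without replicates 9 and 41). The azurophil granule genes MPO, ELANE, PRTN3 and AZU1 and the genes BPI and CD177 were at or near 0, with group means from 0 to 4.07 normalized counts. The most abundant were LYZ, ARG1 and LCN2. LYZ encodes lysozyme, which macrophages and glands also make, and had means of 576 ± 779 and 2028 ± 925 (log2 fold change 3.00 ± 0.90 SE, limma adjusted p = 0.397). ARG1, which hepatocytes also express, had 755 ± 665 and 316 ± 77.1 with its highest value in replicate 9. LCN2, the siderophore-binding protein of secondary granules, had 145 ± 42.4 and 159 ± 69.7 (0.06 ± 0.37 SE, limma adjusted p = 0.958).

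Genes of the neutrophil surface were expressed at moderate levels. Of 18, 15 had a row and 11 passed the filter, 9 with a positive and 2 with a negative log2 fold change (median 0.65, and 0.056 over the 12 genes tested without replicates 9 and 41), and 0 passed the test. ITGB2, the common chain of the leukocyte integrins, had means of 705 ± 377 and 1046 ± 83.8 (0.74 ± 0.32 SE, limma adjusted p = 0.401). C5AR1, the receptor of complement fragment C5a, had 654 ± 227 and 900 ± 137, and PTAFR, that of platelet-activating factor, had 217 ± 102 and 253 ± 60.5. CXCR2, the chemokine receptor that draws neutrophils into tissue, had 76.2 ± 47.1 and 121 ± 34.0 (0.80 ± 0.40 SE, limma adjusted p = 0.421). For 6 of the 11 genes replicate 41 was the lowest library, and for 3 it was replicate 9, against 22.4% and 21.3% of all genes tested.

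The subunits of the phagocyte NADPH oxidase, which makes superoxide in neutrophils and macrophages, had 6 of 6 positive log2 fold changes with a median of 0.96 (0.33 without replicates 9 and 41), and 0 passed the test. CYBB, the catalytic subunit, had means of 1075 ± 639 and 2072 ± 386 (1.16 ± 0.39 SE, limma adjusted p = 0.397). CYBA, its membrane partner, had 814 ± 236 and 926 ± 73.0, and RAC2, the GTPase of the complex, had 449 ± 207 and 609 ± 51.2. Replicate 41 was the lowest library for 5 of the 6, against 22.4% of all genes tested. The summed level of the list was 1275 to 4066 normalized counts at the standard dose and 3590 to 4733 at the increased dose. Monocyte and macrophage markers, led by MARCO, C1QC and C1QA, were likewise positive for 13 of 14 with a median of 0.76 (0.21 without both libraries) and 0 past the test, and their summed level was 4656 to 19042 against 16610 to 26053, so neutrophil and macrophage shares of the oxidase cannot be told apart.

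**Figure D5:**
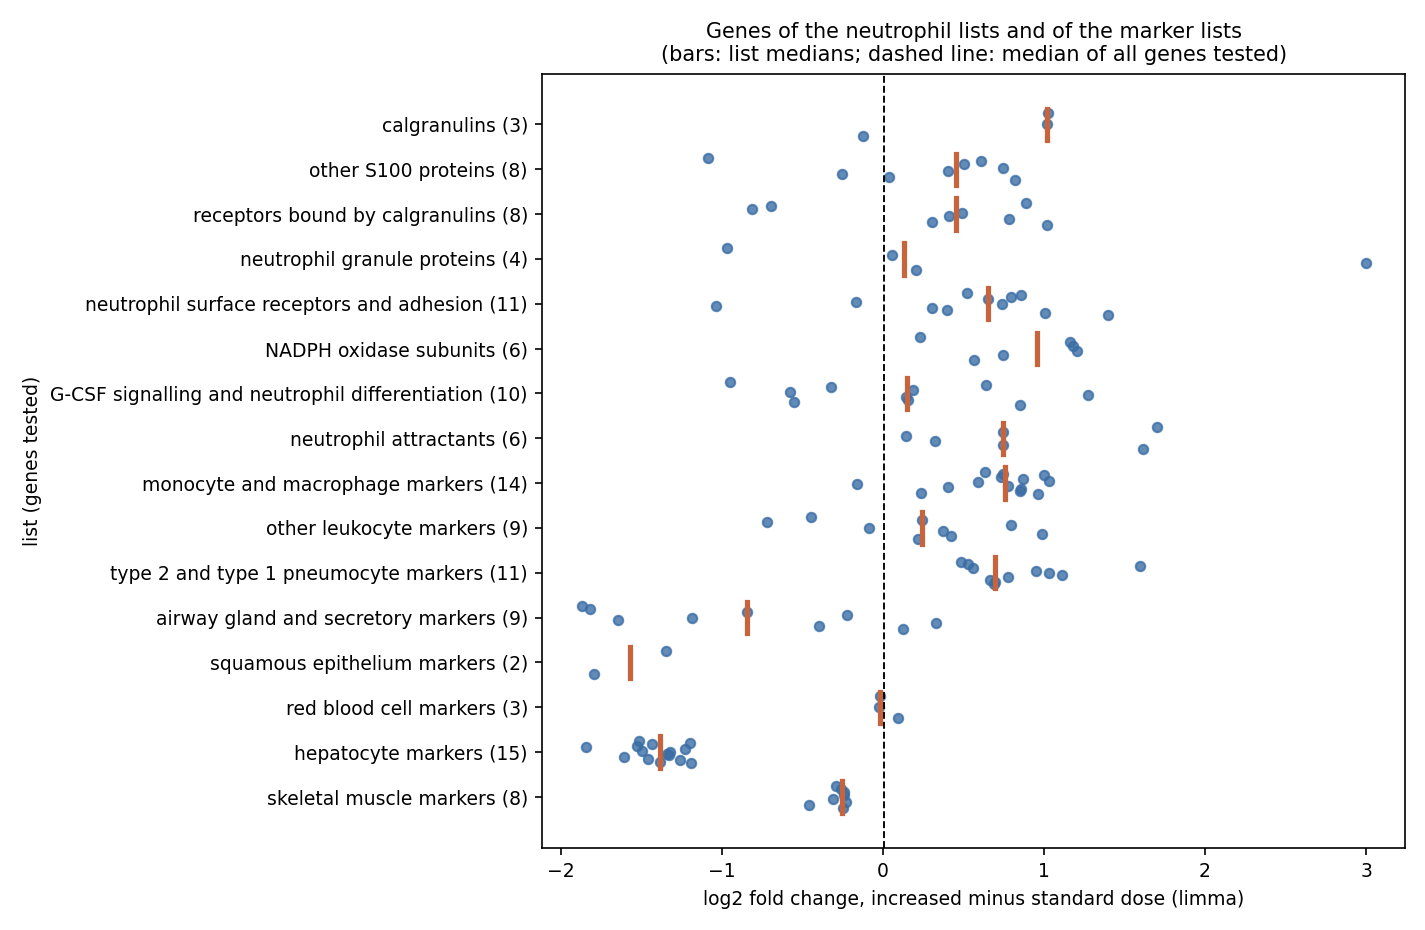
Log2 fold change (increased minus standard dose, limma) of every tested gene of the 16 lists with a gene past the filter, each point a gene, with the list median as a bar and the median of all genes as a dashed line. No gene in any list passed a limma adjusted p of 0.05, and the medians are above 0 for 11 lists (0.13 to 1.02) and below 0 for the squamous (−1.57), hepatocyte (−1.38), airway gland (−0.85), skeletal muscle (−0.25) and red blood cell (−0.017) lists.

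Genes of G-CSF signalling and neutrophil differentiation had no common direction. Of 13 with a row, 10 were tested, 6 positive and 4 negative, with a median of 0.15 (−0.094 without replicates 9 and 41) and 0 past the test. JAK1, a kinase used by CSF3R, had means of 1375 ± 376 and 1081 ± 124 (−0.32 ± 0.22 SE, limma adjusted p = 0.517). STAT5B had 639 ± 170 and 425 ± 39.4, and CEBPB, a transcription factor of emergency granulopoiesis, had 381 ± 133 and 585 ± 151. CSF3, the gene of G-CSF itself, had means of 17.6 and 11.9 and did not pass the filter. Of 9 genes of neutrophil attractants looked up, 7 had a row and 6 were tested. These were positive for 6 of 6 (median 0.74, 0.21 without replicates 9 and 41, 0 past the test). CXCL8 had a mean of 11.3 normalized counts over the 9 libraries and did not pass the filter. LTA4H, which makes leukotriene B4, had 287 ± 97.3 and 500 ± 210, ALOX5AP, the activator of 5-lipoxygenase, had 177 ± 118 and 258 ± 25.1, and the chemokine gene CXCL2 had 123 ± 35.8 and 178 ± 102.

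Other cells that could carry the 5 genes were examined through their markers. Airway gland and secretory markers (9 tested, led by SLPI, SCGB1A1 and PIGR) were positive for 2 and negative for 7 with a median of −0.85, and their summed level was 7249 to 15869 at the standard and 5423 to 12211 normalized counts at the increased dose. Squamous epithelium expresses S100A8 and S100A9, and of its list only KRT5 and KRT4 were tested, with log2 fold changes of −1.79 and −1.34. TGM1 had a mean of 3.51 normalized counts and did not pass the filter, and IVL and CRNN had no read. Of the 8 genes of this list, 5 had a row. Its summed level was 150 and 170 normalized counts in standard dose replicates 17 and 41, against 7.84 to 41.2 in the other libraries. The presence of squamous tissue was not tested. The red blood cell markers tested were HBB, the beta chain of haemoglobin, with a log2 fold change of 0.097, ALAS2 with −0.025 and AHSP with −0.017. Of the other leukocyte markers (9 tested, median 0.24), the most abundant were PTPRC, the common leukocyte antigen CD45, with 0.22, NKG7, of cytotoxic lymphocytes, with 0.43, and MS4A2, of mast cells and basophils, with 0.99. No platelet marker passed the filter, and the highest of them, TUBB1, ITGA2B and GP9, had means over the 9 libraries from 1.82 (GP9) to 14.9 normalized counts (TUBB1). Leaving out replicates 9 and 41 gave medians of −0.44 for the red blood cell, 0.012 for the other leukocyte and −0.40 for the hepatocyte list. The median was then −0.83 for the airway gland and secretory list (8 tested, 8 negative) and −0.37 for the skeletal muscle list. The 1 gene of the squamous list then tested had −1.75. No gene of these lists passed the limma test, and neither did any of the 12446 genes tested. Of the 15 hepatocyte markers, 15 were lower at the increased dose with an unadjusted limma p under 0.05. Among the 12446 genes tested, 821 were lower with such a p, and 12.2% had one in either direction. Replicate 9 was the highest library for 15 of these 15 markers. From DESeq2 the study reported FGA, FGG, SERPINC1 and F2 of this list as lower.

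The genes whose levels over the 9 libraries were most like the members' were listed by Pearson r, as a description. For the mean of the 3 calgranulins they were NSUN2 (r = 0.96), MEX3D (0.95), LRRC57 (0.95), DCLK2 (0.95) and FSTL1 (0.95). The genes most like CSF3R were HSD11B2 (r = 0.98), ZNF445 (0.97) and DOC2B (0.97), and those most like LTF were ZNF580 (r = 0.95), PARP1 (0.93) and CENPM (0.92). These values come from 9 libraries searched over 12446 genes, and the libraries differ in depth and tissue markers as given above.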

How the data were processed

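Lung mRNA of 9 pigs was analysed, 1 library per animal; a library of another pig had been rejected by the authors. For replicate 33 the column name gives 31, and the sample title was followed. The authors used FastQC 11.8, FLEXBAR 3.5.0, TopHat 2.1.1 (Sscrofa11.1), Samtools 1.9 and HTSeq-count 0.11.1 with Ensembl 96 annotation. The signal in the deposited table is a normalized count: the authors scaled the reads of a gene by the size factor that DESeq2 estimates for the library. Values were whole multiples, within 0.01, of the value of 1 read (0.853 to 1.49 normalized counts), so reads were recovered; intervals cover counting error only. The table also holds the authors' own means, log2 fold changes, standard errors, test statistics and p-values from DESeq2, which were not used. The table held 35670 genes, 9458 of them without a read. Genes without a name were named from a name table (223) or by RefSeq overlap (635).

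Genes with a mean over 20 were tested with limma 3.58.1 (trend) on log2(normalized count + 1), two-sided, and a gene was called where its Benjamini-Hochberg adjusted p was under 0.05. Exact permutation tests were used for the members and their ratios. The replicates are animals, so p-values measure the spread between these animals. The labels give no batch, and the replicate numbers do not pair animals across doses. Besides edgeR 4.0.16 and DESeq2 1.42.0 under R 4.3.3, the work used blastn 2.17.0, scipy 1.17.1, pandas 2.3.3, numpy 2.4.6 and matplotlib 3.10.9 under Python 3.11.15, and the fits were tested on simulated data.

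The members and lists were chosen with earlier results of these data known. Named genes are the 5 members, from each list the 3 genes of highest mean and any past the threshold, and the genes of highest r with the members. S100A1, S100A3, S100A4, S100A5, S100A14, TLR4, CXCR2, CSF3, CXCL8, MPO, ELANE, PRTN3, AZU1, BPI, CD177, IVL and CRNN lie outside this rule. They were picked with their values known. Alternatives tried were pseudocounts of 0.5 and 5, no filter or at least 10 in at least 4 libraries, TMM factors, quantile normalization, array weights, edgeR, DESeq2, each library left out and replicates 9 and 41 left out. Scaling to pneumocyte markers, DESeq2 without replicates 9 and 41, and leaving both out of the S100A12 ratios, the pneumocyte values and the list medians were added after seeing the data. Bisulfite sequencing and quantitative PCR are not analysed here.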

Additional observations from a re-analysis of the deposited data

Results flagged for a closer look

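Of 20 groups of 4 or 5 values examined for a library far from the others, 1 stood out, and chance alone flags about 1 in 20. It was the mean log2 level of the type 2 and type 1 pneumocyte markers at the standard dose, where replicate 9 had 7.74 and the nearest library 9.31. The gap was 0.912 of the range of the group. This is also the library with the lowest S100A8 (64.2 normalized counts) and S100A12 (225 normalized counts), neither of which stood out by this measure.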

How the results depend on the processing

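None of the 5 genes passed the threshold under any of the 21 alternatives that were run, and S100A8 and S100A12 kept a positive log2 fold change in all 21. These alternatives share libraries, and most keep replicate 9, so they are not independent. Outside the 21, scaling to pneumocyte markers without replicates 9 and 41 gave −0.12 for S100A8 and −0.016 for S100A12. There the scaling subtracts 0.36 from every gene. The count of all genes past the threshold was 0 with limma and became 2 with array weights, 195 with DESeq2 and 11 with DESeq2 without replicates 9 and 41. With a library left out in turn, the log2 fold change ranged from 0.50 to 1.33 for S100A8, 0.45 to 1.35 for S100A12, −0.29 to 0.11 for S100A9, 0.02 to 0.90 for CSF3R and −0.84 to 1.06 for LTF. That of S100A9 turned to 0.093 with DESeq2 without replicates 9 and 41. That of CSF3R turned to −0.38 without replicates 9 and 41, −0.37 with DESeq2 without them and −0.35 relative to pneumocyte markers. That of LTF turned to −0.15 with quantile normalization, −0.31 with array weights, −0.58 without replicates 9 and 41 and −0.48 relative to pneumocyte markers. Scaling to pneumocyte markers subtracts 0.83 from every gene, so its sign changes follow from its construction. The difference in the S100A12 to S100A8 log2 ratio went from −0.0023 to 0.10 without replicates 9 and 41. Array weights lowered S100A8 to 0.42 and S100A12 to 0.53. The number of pairs of genes correlated past the threshold went from 1 to 0 without replicates 9 and 41, which leaves 7 libraries. The causes of the other shifts were not tested. LTF has no limma value without standard dose replicate 9 or increased dose replicate 27, where its mean was under 20, and no value was computed for FPR1. No paired analysis was possible because the doses share no replicate number. LTF, with 0 to 57 reads per library, has the widest counting intervals relative to its level.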
